A study of Mus musculus with 6 samples.

Results

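The genes described here are 7 core genes of hedgehog signalling, Gli1, Gli2, Gli3, Sufu, Smo, Ptch1 and Hhip, picked by symbol from a table of 25353 genes measured in mouse germinal vesicle (GV) oocytes, which are fully grown oocytes still arrested in meiotic prophase. The set was chosen because Gli3 differed between the KO and WT libraries, so that difference is given as a description, with no test. Of the 7 genes, 6 had a row in the table and 4 had enough reads to be tested. Hhip had no row, and no value is given for it.

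The table holds 6 libraries, 3 from WT oocytes and 3 from KO oocytes, each made from a pool of 5 GV oocytes of C57BL/6J mice. The titles and the design text give the KO genotype as Mfn2-/-, a loss of mitofusin 2, a mitochondrial outer membrane fusion protein, while the genotype field reads Mfn1-/-. The mice are described as 8 weeks old, while the age field reads P1. The labels do not name the deletion strategy or a Cre driver, and they do not say whether each pool came from different mice, so the p-values measure the spread between these pools, which may be technical.

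Mfn2 was measured at 25.5, 38.1 and 32.3 normalized read counts across WT replicates 1 to 3, against 5.25, 5.28 and 4.50 across the KO replicates. A normalized read count is the number of reads of a gene divided by a size factor of its library. Mfn1 was not lower in KO, with 363, 299 and 360 in WT and 398, 382 and 379 in KO. The values therefore went with the titles. Libraries held 6450191 to 7992598 reads, and 1 read was worth 0.899 to 1.11 normalized read counts. A gene with no read could still have had up to 3, which is 2.70 to 3.33 normalized read counts, by counting error alone.

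In hedgehog signalling, a secreted ligand binds the receptor PTCH1 and so relieves its block on SMO, a membrane protein that acts at the primary cilium. GLI2 and GLI3 are zinc finger transcription factors that are cut into repressors without ligand and act as full-length activators with it, GLI3 being the main repressor. SUFU binds GLI proteins and restrains them, and GLI1, PTCH1 and HHIP are classic transcriptional targets that serve as a readout. In the ovary, granulosa cells make the ligands and neighbouring theca and stromal precursors respond.

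The 250 bases before the start site are shown for Gli3, for the noncoding RNA gene A530046M15Rik beside it, and for Sufu, because every KO value of these 3 genes lay above every WT value, and for Ptch1 as the classic target. The sequences come from RefSeq on GRCm38.p6, at chr13:15463473-15463722 (plus strand), chr13:15806993-15807242 (plus strand), chr19:46396646-46396895 (plus strand) and chr13:63565736-63565985 (minus strand), and capitals mark CG dinucleotides.
Gli3: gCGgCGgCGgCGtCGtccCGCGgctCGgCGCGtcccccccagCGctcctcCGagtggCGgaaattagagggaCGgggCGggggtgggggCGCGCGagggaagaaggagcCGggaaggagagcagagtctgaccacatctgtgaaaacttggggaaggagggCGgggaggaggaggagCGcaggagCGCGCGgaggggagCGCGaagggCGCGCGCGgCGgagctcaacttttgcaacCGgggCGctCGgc
A530046M15Rik: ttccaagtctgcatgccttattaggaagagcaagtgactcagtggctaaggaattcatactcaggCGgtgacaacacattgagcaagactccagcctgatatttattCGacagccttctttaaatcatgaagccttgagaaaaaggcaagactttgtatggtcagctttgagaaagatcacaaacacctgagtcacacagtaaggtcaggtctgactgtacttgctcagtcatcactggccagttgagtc
Sufu: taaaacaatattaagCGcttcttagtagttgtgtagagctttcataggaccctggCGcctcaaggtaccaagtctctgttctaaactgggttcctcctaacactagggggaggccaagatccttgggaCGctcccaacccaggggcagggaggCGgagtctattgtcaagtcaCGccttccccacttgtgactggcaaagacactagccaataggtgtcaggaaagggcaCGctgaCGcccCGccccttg
Ptch1: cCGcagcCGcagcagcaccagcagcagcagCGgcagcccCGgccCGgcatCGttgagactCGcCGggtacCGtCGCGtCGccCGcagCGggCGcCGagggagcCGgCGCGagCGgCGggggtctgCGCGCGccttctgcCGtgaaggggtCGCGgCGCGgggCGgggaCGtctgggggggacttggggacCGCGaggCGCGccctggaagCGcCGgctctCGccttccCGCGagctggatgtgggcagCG
The Gli3 stretch held 34 CG dinucleotides, more than 96.5% of 32851 start sites of the same length, whose median was 6. That of Ptch1 held 41, more than 98.9% of start sites, and that of Sufu held 8, more than 57.0%. In contrast to Gli3, the stretch before A530046M15Rik held 2, more than 18.8%. All 250 bases before Gli3 lay within the annotated Gli3 gene, outside its exons, and within an exon of Gm6556 on the opposite strand. The Ptch1 stretch likewise lay within its own gene and outside exons, because longer transcripts start upstream. The stretches of Sufu and A530046M15Rik overlapped no annotated gene. The GLI consensus GACCACCCA, read on both strands (reverse TGGGTGGTC), was in 74 of the 32851 stretches, or 0.225%, and in 0 of the 6 that matched a listed gene (Gli1 had no match), which says only that these letters are not in these windows.

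Across the table, 18762 genes were tested between KO and WT with limma on log2(normalized read count + 1). At a Benjamini-Hochberg adjusted p under 0.05, 615 genes (3.28%) were called, 351 (1.87%) higher and 264 (1.41%) lower in KO. With values scaled to each library's total in place of the deposited size factors, the split was 488 higher and 176 lower. KO and WT values did not overlap for 4360 genes (23.2%). Leaving out 1 library moved the count of called genes, from 71 without KO replicate 3 to 844 without KO replicate 1. Of the 4 tested hedgehog genes, Gli3 was past that threshold with values that did not overlap, which is what the set was chosen on, so nothing is read from it. Of the other 3, Gli2, Sufu and Ptch1, 0 were called, and the values of Sufu did not overlap between the groups.

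Gli3 (GRCm38 chromosome 13, 15463235 to 15730026, plus strand) had the largest difference of the tested hedgehog genes. Its values were 14.4, 33.5 and 37.9 normalized read counts across WT replicates 1 to 3, against 163, 107 and 147 across the KO replicates. The groups did not overlap, and the lowest library was WT replicate 1. These values rested on 13, 36 and 41 reads in WT and 155, 101 and 164 in KO. The WT mean was 28.6 ± 12.5 and the KO mean 139 ± 29.0 (SD over 3 libraries), a ratio of 4.86. The log2 fold change was 2.33 with a standard error of 0.31. It ranked 25th from the top of the 18762 tested genes by log2 fold change, and 8th of the 11309 with a mean value of at least 20. Leaving out each library in turn gave log2 fold changes from 1.91 to 2.58. None of 324 windows of 75 bases from the longest Gli3 transcript matched another gene. The antisense gene Gm6556, which shares 188 exon bases with Gli3, had 5.25 normalized read counts in KO replicate 1 and at most 0.930 in each other library, and the libraries keep no strand.

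Gli2 (chromosome 1, 118834132 to 119053619, minus strand), which encodes the main activator of the family, was measured at 33.3, 42.8 and 26.8 in WT and at 25.2, 74.0 and 32.4 normalized read counts in KO. KO replicate 2 was the highest and KO replicate 1 the lowest of all 6 libraries, so the groups overlapped. The WT mean was 34.3 ± 8.05 and the KO mean 43.8 ± 26.3 (SD over 3 libraries). The log2 fold change was 0.22 ± 0.35 (SE), with a 95% interval of -0.53 to 0.97 and an adjusted p of 0.806 by limma. Without KO replicate 2 it was -0.23.

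Gli1 (chromosome 10, 127329882 to 127341974, minus strand) had 0, 1 and 0 reads in WT and 0, 3 and 1 in KO, at or under the limit of 3 reads in every library. It was not tested, and no fold is given. Arhgap9, which shares 62 exon bases on the opposite strand, was measured at 11.2 to 24.0 in WT and 13.7 to 40.5 normalized read counts in KO.

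Sufu (chromosome 19, 46396896 to 46488804, plus strand), the GLI-binding inhibitor, was the most abundant of the listed genes per kilobase of exon. It was measured at 145, 124 and 129 in WT and at 180, 149 and 185 normalized read counts in KO. The lowest KO library, replicate 2, lay just above the highest WT library, replicate 1. The WT mean was 133 ± 11.2 and the KO mean 171 ± 19.5 (SD over 3 libraries). On the log2 scale KO exceeded WT by 0.36 ± 0.16 (SE), with a 95% interval of 0.02 to 0.70, and the gene was not called (limma adjusted p = 0.245).

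Smo (chromosome 6, 29735503 to 29761365, plus strand), the signal transducer, had 2, 1 and 0 reads in WT and 0, 0 and 1 in KO. It was not tested and gets no fold. Ptch1 (chromosome 13, 63508328 to 63573598, minus strand), both receptor and target, had 7, 5 and 3 reads in WT and 3, 5 and 6 in KO. These are 7.76, 4.65 and 2.77 normalized read counts in WT and 3.15, 5.28 and 5.40 in KO, and the groups overlapped. Its log2 fold change was -0.05 ± 0.54 (SE), with a 95% interval of -1.19 to 1.08 and a limma adjusted p of 0.974, and leaving out WT replicate 1 or KO replicate 1 gave 0.25 or 0.15. At this depth, changes of Gli1, Smo and Ptch1 within these limits were not detectable.

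**Figure D1:**
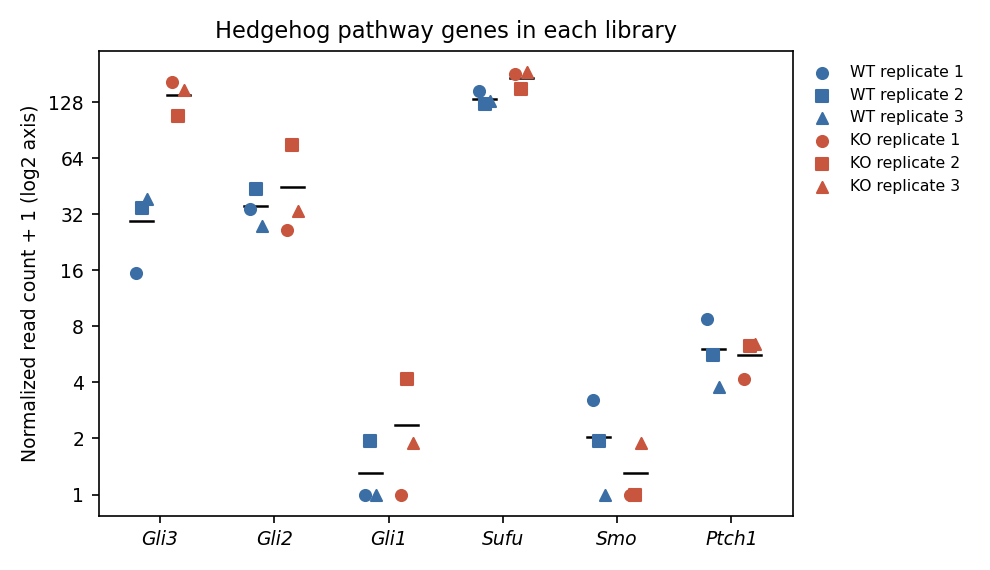
Normalized read counts + 1 on a log2 axis for the 6 hedgehog genes with a row in the table, 1 point for each library (WT blue, KO red) and a black bar at the mean of each group. Gli3 and Sufu have every KO point above every WT point; Gli1, Smo and Ptch1 sit near the bottom of the axis in all 6 libraries.

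Levels of different genes were compared per kilobase of annotated exon. In WT, Sufu stood first at 17.3 ± 1.46 normalized read counts per kilobase (SD, n = 3), ranging from 16.1 to 18.9. Gli2 followed at 4.99 ± 1.17 and Gli3 at 2.98 ± 1.30, and their ranges over the WT libraries overlapped. Ptch1 at 0.357, Smo at 0.187 and Gli1 at 0.062 came last, with ranges that overlapped from one to the next and lay below that of Gli3. In KO, Sufu was at 22.3 ± 2.54 and Gli3 at 14.5 ± 3.02 per kilobase, above Gli2 at 6.38 ± 3.83. Ptch1 was at 0.325, Gli1 at 0.272 and Smo at 0.053 in KO.

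The balance between the family members shifted with Gli3. Per kilobase, the ratio of Gli3 to Gli2 was 0.310, 0.561 and 1.01 across WT replicates 1 to 3, against 4.63, 1.03 and 3.26 across the KO replicates. KO replicate 2, which had the highest Gli2, lay next to WT replicate 3. The ratio of Sufu to Gli3 was 12.6, 4.61 and 4.26 in WT and 1.38, 1.74 and 1.57 in KO. Both ratios contain Gli3 and so restate its difference.

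The neighbourhood of Gli3 was not used in choosing the genes, but it was examined after values were seen. Calls and p-values of its genes are therefore given as descriptions. Within 1 Mb on either side, 17 other genes had a row and 9 were tested. Of these 9, 1 was called higher, 0 lower, and 3 had values that did not overlap, beside 3.28% called and 23.2% not overlapping over all genes tested. The median log2 fold change of the 9 was -0.01, against -0.01 over all genes tested.

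The called neighbour, A530046M15Rik, is a long intergenic noncoding RNA gene 77.2 kb downstream of Gli3 on the same strand (chromosome 13, 15807243 to 15827537). It was measured at 52.1, 50.2 and 48.9 in WT and at 127, 118 and 105 normalized read counts in KO. Both groups were tight and well apart, with a WT mean of 50.4 ± 1.60 and a KO mean of 117 ± 11.0 (SD over 3 libraries). KO exceeded WT by 1.19 ± 0.19 (SE) on the log2 scale (limma adjusted p = 0.00538), and the call was kept in 15 of 15 alternatives. None of 59 windows of 75 bases from its exons matched another gene.

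Gm20043, a long intergenic noncoding RNA gene 50.1 kb upstream on the same strand, was measured at 28.8, 27.9 and 22.2 in WT and at 41.0, 37.0 and 38.7 normalized read counts in KO. Its values did not overlap, but it was not called, at a log2 fold change of 0.55 ± 0.27 (SE; adjusted p = 0.305 by limma). Inhba, an activin subunit gene 281.8 kb downstream, was measured at 23.3, 1.86 and 6.46 in WT and at 2.10, 9.51 and 8.09 in KO, and the groups overlapped (log2 fold change -0.27, limma adjusted p = 0.887). Among farther genes, the mitochondrial ribosomal protein gene Mrpl32 had KO values above WT values and a log2 fold change of 0.39 (limma adjusted p = 0.0925).

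**Figure D2:**
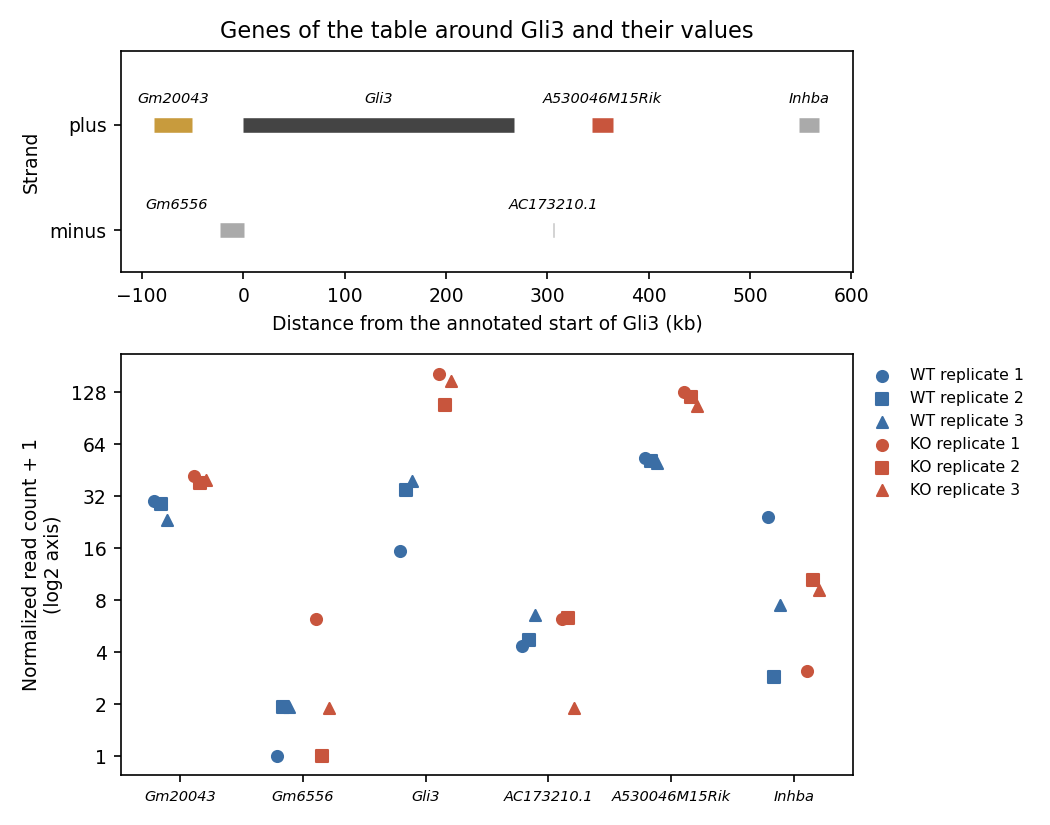
Top, tested genes of the table near Gli3 and the antisense gene Gm6556, by strand and by distance in kb from the annotated start of Gli3. Bottom, their normalized read counts + 1 on a log2 axis, 1 point for each library (WT blue, KO red). KO points lie above WT points for Gli3, A530046M15Rik and Gm20043, and overlap for AC173210.1, Gm6556 and Inhba.

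Beyond the core genes, 75 further genes of the pathway were listed by role; 64 had a row and 53 were tested. Of the 53, 2 were called higher (Cul3 and Ccnd2) and 1 lower (Rpgrip1l) in KO, or 5.66%, against 3.28% of all genes tested. Fold changes were positive for 25 and negative for 28, with a median of -0.05 against -0.01 over all genes tested. KO and WT values did not overlap for 14 of the 53, against 23.2% of all genes tested.

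Ligand transcripts were scarce. Shh had at most 2 reads in any library and Ihh at most 2. Dhh, the ligand best known from the gonads, was measured at 3.33, 3.72 and 9.23 in WT and at 3.15, 6.34 and 9.89 normalized read counts in KO (log2 fold change 0.22, limma adjusted p = 0.883). Of 3 tested genes for ligand processing and release, 0 were called. Hhat, which attaches palmitate to the ligands, had the smallest p of them, with 218, 245 and 238 in WT and 306, 260 and 317 in KO (log2 fold change 0.33, limma adjusted p = 0.220), and KO values lay above WT values. Gpc3, a glypican that binds hedgehog, had a log2 fold change of -0.16 (limma adjusted p = 0.864).

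All 3 receptor and co-receptor genes with a row were tested and 0 were called. Cdon, a co-receptor that binds the ligand, was measured at 41.0, 21.4 and 14.8 in WT and at 26.3, 27.5 and 28.8 normalized read counts in KO, with WT values on both sides of the KO values (log2 fold change 0.21, limma adjusted p = 0.814). Its relative Boc had 4.44, 1.86 and 2.77 in WT and 1.05, 0 and 3.60 in KO (log2 fold change -0.88, limma adjusted p = 0.549). Lrp2, an endocytic receptor, had 32.2, 30.7 and 15.7 in WT and 10.5, 22.2 and 16.2 in KO (log2 fold change -0.65, limma adjusted p = 0.411). Among 8 tested regulators of Smoothened, 0 were called. Iqce, a ciliary base protein, and Mgrn1, a ubiquitin ligase, had the smallest p of them, with log2 fold changes of -1.16 and 0.17 (limma adjusted p = 0.382 and 0.731).

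Of 14 tested genes for GLI phosphorylation, processing and degradation, 1 was called and 7 had values that did not overlap, beside 3.28% and 23.2% of all genes tested. Cul3, the cullin scaffold that, with the adaptor SPOP, targets full-length GLI proteins for degradation, was higher in KO. It was measured at 156, 193 and 196 in WT and at 402, 330 and 303 normalized read counts in KO, with the groups well apart. KO exceeded WT by 0.92 ± 0.15 (SE) on the log2 scale (limma adjusted p = 0.00572), and the call was kept in 15 of 15 alternatives. Spop itself had 314, 323 and 396 in WT and 239, 284 and 226 in KO, a log2 fold change of -0.46 that did not pass the test (limma adjusted p = 0.0916). Prkacb, a catalytic subunit of the protein kinase A that primes GLI processing, had 13.3, 19.5 and 13.9 in WT and 37.8, 28.5 and 36.0 in KO, a log2 fold change of 1.09 that did not pass it either (limma adjusted p = 0.0724). Btrc, the F-box protein that recognises phosphorylated GLI3, was at 2157, 1905 and 2405 in WT and at 1505, 1761 and 1733 in KO (log2 fold change -0.37, limma adjusted p = 0.0846). The remaining genes without overlap, Cul1, Spopl and Dzip1, were lower in KO, with log2 fold changes of -0.26, -0.11 and -0.53. None of them was called (limma adjusted p = 0.152, 0.635 and 0.246). Spop, Prkacb, Btrc, Cul1, Spopl and Dzip1 were named after their values were seen.

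Of 13 ciliary transport and transition zone genes, all tested, 1 was called lower and 10 had negative fold changes, where 1.41% of all 18762 genes tested were called lower and 9634 had negative fold changes. Rpgrip1l, a protein of the ciliary transition zone, was measured at 302, 289 and 240 in WT and at 183, 173 and 166 normalized read counts in KO. The groups did not overlap, at a log2 fold change of -0.66 ± 0.14 (SE; adjusted p = 0.0211 by limma). It was no longer called after leaving out WT replicate 1 (adjusted p = 0.120), WT replicate 2 (0.0987), WT replicate 3 (0.0519), KO replicate 2 (0.0614) or KO replicate 3 (0.0867).

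Of 7 tested transcriptional targets, 1 was called and 3 had values that did not overlap, beside 3.28% and 23.2% of all genes tested. Besides the called gene, these were Grem1, higher in KO (log2 fold change 1.89, limma adjusted p = 0.0804), and Ccnd1, lower (-1.10, limma adjusted p = 0.227). Both were named after their values were seen. Ccnd2, which encodes cyclin D2, had 101, 55.8 and 33.2 in WT and 119, 142 and 128 normalized read counts in KO. WT replicate 1 was close to the KO values, and the groups did not overlap. KO exceeded WT by 1.16 ± 0.29 (SE) on the log2 scale (limma adjusted p = 0.0410), but it was not called after leaving out WT replicate 2 (adjusted p = 0.121), WT replicate 3 (0.172), KO replicate 2 (0.119) or KO replicate 3 (0.166). Leaving out WT replicate 3 brought that difference to 0.77. The antisense gene Gm43126 shares 372 exon bases with Ccnd2 and had at most 8.99 normalized read counts in any library. Of the 3 tested zinc finger relatives of the Gli genes, 0 were called. Glis1 had a log2 fold change of -0.23 and Glis3 of 0.10 (limma adjusted p = 0.417 and 0.824).

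**Figure D3:**
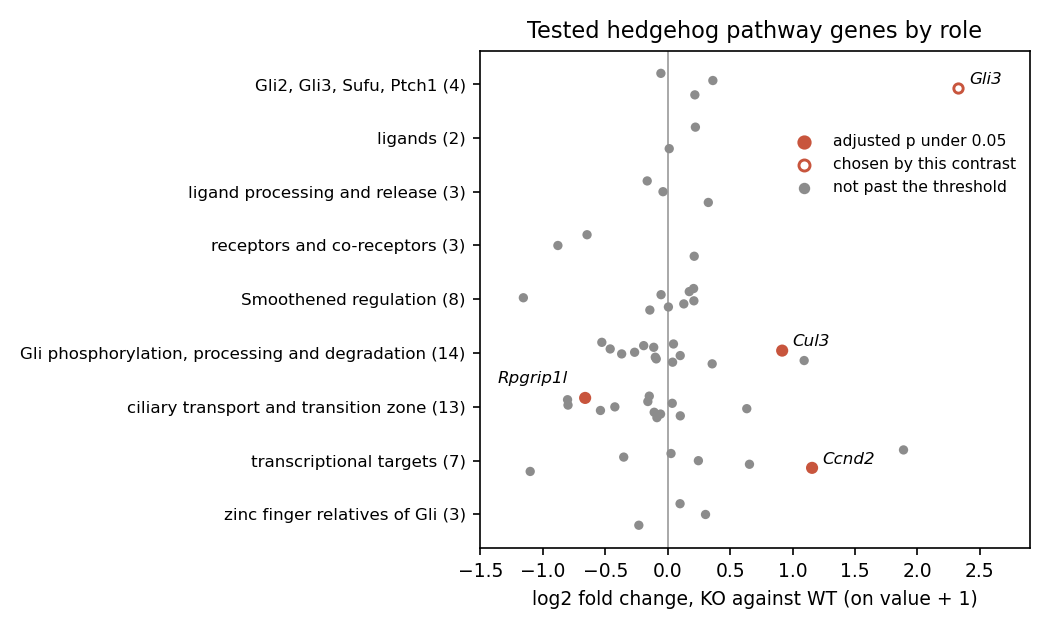
Log2 fold changes of KO against WT, on normalized read count + 1, for the tested hedgehog genes grouped by role, with the number tested in brackets; positive values are higher in KO. Red points passed an adjusted p under 0.05 (Cul3, Ccnd2, Rpgrip1l), the open circle is Gli3, whose difference chose the set, and grey points did not pass.

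The genes whose log2 values over the 6 libraries followed those of Gli3 most closely, among 9569 tested genes with a mean of at least 20, were Raver2 (Pearson r = 0.997), Zfp930 (0.995), Il17f (0.993), Aida (0.993) and Ccser1 (0.992). Model genes and pseudogenes were left out. Like Gli3, all 5 were lowest in WT replicate 1 and higher in every KO library than in every WT library. They were picked by r, and both the shared split between groups and the order of the libraries enter it. Their log2 fold changes were 0.32 to 0.87. Of these 9569 genes, 337 reached an r of at least 0.9. Cul3 had an r of 0.967 and A530046M15Rik of 0.910, Sufu of 0.741 and Gli2 of 0.059. These are descriptions over 6 libraries, and all genes of a library share its size factor.

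Markers of the oocyte were abundant in all libraries. The 10 oocyte markers summed to 101554 to 127020 normalized read counts in WT and 77500 to 118096 in KO, the lowest being KO replicate 1. Of these 10, 0 were called. Zp1 had 6984, 5392 and 6181 in WT and 2652, 4743 and 5252 in KO, without overlap (limma adjusted p = 0.0851). The log2 fold changes of Zp1, Zp2 and Zp3 were -0.61, -0.66 and -0.67. Those of Gdf9, Bmp15, Figla, Nobox and Ddx4 were positive, the largest being 0.55 for Ddx4. Transcripts of other ovarian cells were low but not equal between libraries, and in pooled cells fewer cells of a type and less RNA per cell cannot be told apart. The 11 granulosa markers summed to 628 to 816 in WT and 523 to 656 in KO, and 0 were called. Cyp19a1, the largest part of that sum in each library, had 363, 405 and 445 in WT and 303, 336 and 301 in KO. Its values did not overlap between the groups, but it was not called (limma adjusted p = 0.137). Inha, Inhba and Hsd17b1 were highest in WT replicate 1, while Fshr was lowest there. In the same list, Amh and Foxl2 had at most 3 reads in any library, and Amhr2 had 1 read in each. The 4 theca and steroidogenic markers with a row summed to 1892, 17.7 and 322 in WT and to 9.45, 21.1 and 54.0 in KO, and 2 of 3 tested, Cyp11a1 and Lhcgr, were called lower. The 8 stroma and mesenchyme markers summed to 180, 32.5 and 29.5 in WT and to 10.5, 13.7 and 8.99 in KO. Col1a1, Col1a2, Col3a1 and Tcf21 were at 0 in every KO library. In WT replicate 2, Col1a2, Col3a1, Tcf21 and Acta2 were also at 0. Col1a1 had 1, 1 and 0 reads in WT. Of 3 tested, 1, Dcn, was called lower, while Pdgfra and Nr2f2 overlapped between the groups. The 6 immune markers summed to 85.4, 24.2 and 47.1 in WT and to 17.9, 12.7 and 14.4 in KO. Lyz2, C1qa and Cd74 were at 0 in KO. In WT replicate 2, Lyz2 and Cd74 were also at 0, and C1qa had 1 read.

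Gli3 was lowest in WT replicate 1, the library with the highest theca, stroma and immune sums. It was higher in KO, where the stroma and immune sums were lower than in every WT library. In WT replicate 2, Dcn made up 28.8 of the stroma sum of 32.5, and Cd68 21.4 of the immune sum of 24.2. The gap between that library and KO therefore rested mostly on Dcn and Cd68. Across the KO replicates Dcn was at 8.40, 6.34 and 2.70, and Cd68 at 10.5, 8.45 and 14.4. Endothelial markers (5 genes) summed to 196 to 250 in WT and 168 to 260 in KO, and surface epithelial markers (5 genes) to 15.8 to 29.9 and 12.7 to 26.1. Most of the endothelial sum was Pecam1, while Cdh5, in the same list, had 1 read in WT replicate 1 and 0 in each other library. Kdr, also listed there, was measured at 11.1, 8.37 and 10.2 in WT and at 3.15, 2.11 and 2.70 in KO. Its values did not overlap, but it was not called (limma adjusted p = 0.0885). The part of these other cells in the values of Gli3, Sufu, Cul3, Ccnd2 and the other pathway genes was not tested.

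**Figure D4:**
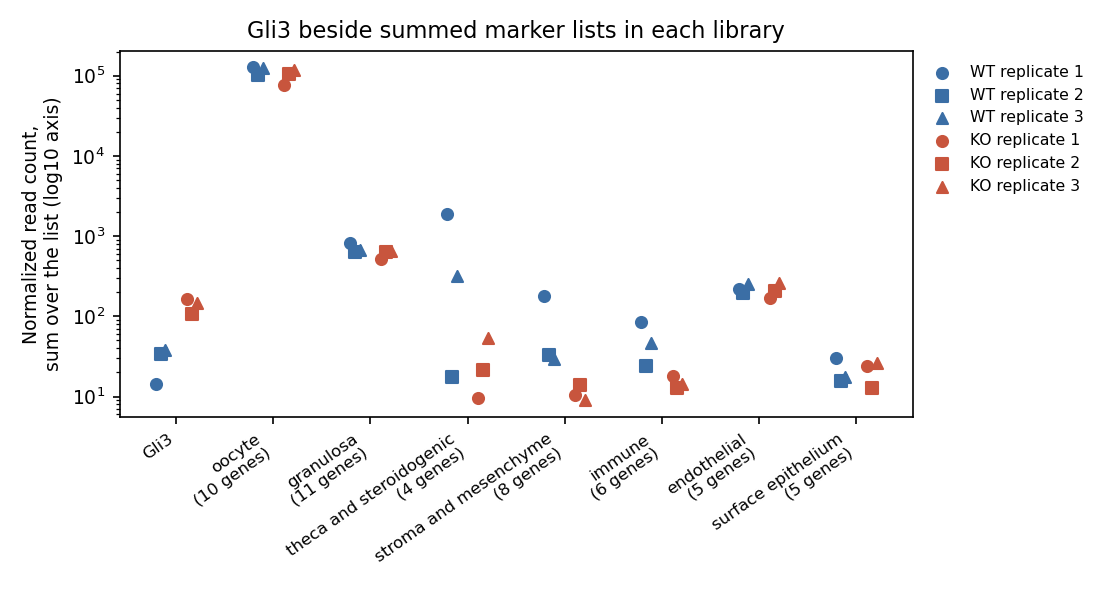
Normalized read counts of Gli3 and summed normalized read counts of 7 marker lists, on a log axis, 1 point for each library (WT blue, KO red). Stroma and immune sums are lower in KO and Gli3 is higher in KO; oocyte, granulosa and endothelial sums overlap between the groups.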

How the data were processed

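Poly(A)-primed cDNA from each pool was amplified by Smart-Seq2, built into Nextera XT libraries without strand information or molecular identifiers and read as pairs of 75 bases, per the labels' protocols. The submitters' processing notes name cutadapt, FastQC, STAR, DESeq, DESeq2, GRCm38 and mm10. For the gene counter and annotation, nothing is stated in those sources. The deposited values are normalized read counts, a signal in which the authors divided reads by a size factor, per the file headers, which name Partek and DESeq2. Dividing by the value of 1 read gave whole reads for 100% of values above 0, within 0.1 reads. 0 columns were left without a sample.

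Genes that reached a value of 1 in at least 3 libraries were compared with limma-trend (limma 3.58.1, R 4.3.3) on log2(value + 1), with Benjamini-Hochberg adjustment over all genes tested. Log2 fold changes understate the change of low genes. The recovered reads were tested with edgeR 4.0.16 (quasi-likelihood, TMM), which called 789 genes, and DESeq2 1.42.0, which called 924. Other alternatives were pseudocounts of 0.5 and 5, no filter, a mean of at least 10, CPM and TMM scaling, the replicate number as a block, and leaving out each library. The fit was tested on simulated data. Exon lengths and positions came from GENCODE M21 and start sites from RefSeq. The longest transcript of a gene was cut into 75-base windows and aligned with minimap2 2.31-r1302 to all transcripts, allowing 1 mismatch.

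The 7 genes, the pathway and marker lists and the tests were chosen with earlier results of these data known. Named genes were the 7 genes, their overlapping genes, all ligand and receptor genes with a row, the called genes of each other list (or the 2 of smallest p) and the 5 genes most like Gli3. Genes within 1 Mb of Gli3 were listed after values were seen. Limits given for a count of 0 concern counting error alone, because amplification copies molecules.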

Additional observations from a re-analysis of the deposited data

How the results depend on the processing

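Gli3 kept its direction under 15 of 15 alternatives, with log2 fold changes of 1.91 to 2.58. Its KO values all lay above its WT values, so leaving out a library could not turn that direction. The set was chosen on this difference, so the range is only a description. Gli2 and Sufu were not called under any of the 15, nor Ptch1 under the 12 that gave it a value. Leaving out each library in turn, with the genes tested kept the same, gave 71 to 844 genes called in all, and 1 to 3 of the other pathway genes. Cul3 remained called in each of these fits. DESeq2 called 924 genes in all (508 higher and 416 lower) against 615, and added Btrc to the pathway genes. The direction of low or variable genes turned when 1 library was left out: the log2 fold change ranged from -0.23 to 0.53 for Gli2, from -0.35 to 0.25 for Ptch1, from -0.10 to 0.62 for Dhh and from -0.11 to 0.60 for Cdon. The cause was not tested. Ptch1, Dhh and Boc were too low for edgeR and for a mean of at least 10, and DESeq2 gave them no adjusted p.

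With the replicate number as a block, a paired analysis, 421 genes were called (246 higher and 175 lower), and the calls of the hedgehog genes did not change. Deviations of same-numbered libraries correlated at -0.08, -0.02 and -0.04, and those of differently numbered ones at -0.05 to 0.08. These correlations cannot show whether same-numbered pools share an origin, which the labels do not state.

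With 3 pools in each group and few reads a library, changes of Ptch1, Dhh or Boc smaller than their intervals are out of reach, and those of Gli1 and Smo were not measurable.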
